A study of Mus musculus with 24 samples.

Results

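These data concern 2352 chromatin regions of cultured mouse epidermal stem cells (EpdSCs) that had an ATAC-seq peak in each of the 3 cultures in which SOX9 with its DNA-binding and transactivation domains was induced, and in none of the other 4 cultures. ATAC-seq marks accessible chromatin as sites where the Tn5 transposase can insert adapters. The series holds 24 samples in 12 groups of 2, and the authors merged both samples of a group into 1 peak list before deposit. Peaks of the 7 culture lists were joined where they overlapped by at least 1 bp, which gave 97078 regions, and the 2352 members were the regions with a peak in the WT-SOX9, SOX9+AFOS and SOX9+ARID1a lists and no peak in the noDOX, ΔHMG-SOX9, ΔTA-SOX9 and AFOS lists. Members were thus chosen by the authors' peak calls in these 7 lists, and culture scores of members are given below as a description only.

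All cultures were male CD1 keratinocytes from back skin that carried K14rtTA, the doxycycline (DOX) dependent activator under the Krt14 promoter. The noDOX and WT-SOX9 groups were labelled TRE-myc-Sox9, the ΔHMG-SOX9 group TRE-myc-Sox9noHMG (no DNA-binding domain) and the ΔTA-SOX9 group TRE-myc-Sox9noTA (no transactivation domain). The AFOS group carried TRE-FLAG-AFOS, a dominant-negative FOS that prevents AP1 from binding, the SOX9+AFOS group TRE-myc-Sox9 and TRE-FLAG-AFOS, and the SOX9+ARID1a group TRE-myc-Sox9 and TRE-ARID1a, a subunit of the SWI/SNF remodeller. Every group except noDOX received DOX at 1 µg per ml, and day 3 was given in the labels for 1 sample each of the ΔTA-SOX9, ΔHMG-SOX9 and WT-SOX9 groups. Per the methods of the study, the WT, ΔHMG and ΔTA versions of SOX9 were introduced into K14rtTA cells by lentivirus with puromycin selection. For the AFOS and ARID1a experiments the virus carried AFOS or Arid1a and the recipient cells were K14rtTA cells with or without a TRE-mycSOX9 transgene already present. SOX9+AFOS and SOX9+ARID1a thus differ from WT-SOX9 in the source of SOX9 as well as in the added factor, which cannot be told apart. The only uninduced list was that of the WT-SOX9 cells, so every arm shares 1 control. The 5 skin lists, which the rule did not use, came from male CD1 mice with K14rtTA and TRE-myc-Sox9, pooled within each replicate. EpdSCs were sorted from back skin as CD49f-high, CD34-neg and Ly6A-high at postnatal day 21 (D0) and at day 28 (W1), 35 (W2) and 63 (W6) after DOX began at day 21. No uninduced skin of matching age was among the samples, so age and time on DOX cannot be told apart. The W12 cells came from skin grafted onto immunocompromised hosts, so week 12 and the graft cannot be told apart.

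SOX9 is an HMG-box transcription factor that bends DNA in the minor groove and can bind its motif in nucleosomal DNA, which is the property of a pioneer factor. In skin it specifies hair follicle stem cells and is normally silent in interfollicular epidermis, where AP1 and p63 act at many enhancers. SOXE proteins such as SOX9 can bind as dimers to paired SOX motifs that face each other, and SWI/SNF complexes move nucleosomes at sites to which factors recruit them.

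The lists have limits that touch every value below. Each group is 1 list, so no spread between replicates exists, no test across samples could be made, and intervals given are 95% Wilson intervals that cover counting error over regions only. Read depth is unknown, and the culture lists held 49458 to 60231 peaks. Intronless coding sequence from a construct can appear as peaks that end at exon borders. Such peaks in Arid1a exons past the first, allowing 100 bp beyond a border, numbered 11 in the SOX9+ARID1a list but also 8 in the list labelled AFOS and 7 in SOX9+AFOS, against 0 or 1 in the other 4 culture lists. The highest score among them was 38.2 in SOX9+ARID1a, 8.69 in AFOS, 7.86 in SOX9+AFOS and 7.47 in ΔTA-SOX9. No member lay in such an exon of Arid1a, Sox9 or Fos. AP1 matches were in 30.0% of regions that the list labelled AFOS opened and in 19.2% of those it closed, against 4.32% and 35.7% in SOX9+AFOS. The same shares were 11.8% and 29.9% in WT-SOX9, 18.8% and 21.1% in SOX9+ARID1a, 24.8% and 23.4% in ΔHMG-SOX9 and 32.7% and 19.03% in ΔTA-SOX9. Without the AFOS list the rule gave 2628 regions in place of 2352, and the shares given below moved from 20.2% to 19.1% for SOX matches, from 4.76% to 5.37% for AP1 matches and from 34.99% to 33.0% for regions absent at D0 and open at W2. The list labelled W1 had no peak confined to a Sox9 exon past the first, while the D0, W2, W6 and W12 lists had 1 or 2. In culture the SOX9+AFOS and SOX9+ARID1a lists had 2 each and the noDOX list had 1, with a score of 3.71, while the WT-SOX9, ΔHMG-SOX9, ΔTA-SOX9 and AFOS lists had 0. No list, the AFOS and SOX9+AFOS lists included, had such a peak in Fos. Without the WT-SOX9 list the rule gave 4050 regions, with shares of 14.6% for SOX, 4.91% for AP1 and 24.96% for absent at D0 and open at W2, and without the ΔHMG-SOX9 or the ΔTA-SOX9 list it gave 2405 and 2379 regions, with SOX shares of 19.88% and 19.97%.

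To show the sequence that members carry, 7 stretches that reach 50 bases to either side of the centre of a match or pair are given. They belong to members named below by rank of peak score or by a hair follicle gene, lie outside annotated exons and hold a SOX match in the central 200 bp of the member. Sequences are the plus strand of GRCm38, 5′ to 3′, with capitals for SOX matches (ACAATAG or ACAATGG) and SOX cores (ACAAAG or ACAATG) on either strand. The first 3 hold cores that face each other with 3 or 4 bases between them, the fourth holds cores turned away from each other with 14 bases between them, and the other 3 hold no pair of cores within 20 bases (ACAATAG is a match but holds no core).
Dock2 intron (chr11:34739129-34739229): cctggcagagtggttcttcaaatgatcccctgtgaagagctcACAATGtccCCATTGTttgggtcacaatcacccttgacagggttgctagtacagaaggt
Tcf7l2 intron (chr19:55788384-55788484): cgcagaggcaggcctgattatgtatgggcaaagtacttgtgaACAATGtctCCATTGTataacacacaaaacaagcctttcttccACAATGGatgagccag
Vdr intron (chr15:97897628-97897728): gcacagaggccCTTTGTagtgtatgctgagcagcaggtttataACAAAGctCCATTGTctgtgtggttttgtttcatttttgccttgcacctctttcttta
Reep3 intron (chr10:67061501-67061601): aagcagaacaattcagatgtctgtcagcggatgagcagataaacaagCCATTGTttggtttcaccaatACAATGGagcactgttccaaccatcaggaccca
intergenic, nearest coding gene Bmp2k (chr5:96957037-96957137): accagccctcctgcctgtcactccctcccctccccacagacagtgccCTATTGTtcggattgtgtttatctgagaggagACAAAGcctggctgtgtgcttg
intergenic, nearest coding gene Ddx19a (chr8:111000037-111000137): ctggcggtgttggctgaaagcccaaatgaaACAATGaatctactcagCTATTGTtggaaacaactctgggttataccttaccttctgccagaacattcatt
4930402H24Rik intron (chr2:130819245-130819345): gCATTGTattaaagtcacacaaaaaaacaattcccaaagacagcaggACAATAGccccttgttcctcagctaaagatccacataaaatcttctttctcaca
In the Dock2 and Tcf7l2 members the facing pair had 4 bases between the cores, and in the Vdr member it had 3. A match describes the letters only and does not show that SOX9 was bound.

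To place the member set among the ways in which a region can open, all regions absent without DOX were sorted by which of the 6 DOX lists held a peak. Among the 20 ways to have a peak in exactly 3 of the 6 lists, the member set was the largest with 2352 regions. The set of 2260 regions with peaks in exactly the opposite 3 lists, ΔHMG-SOX9, ΔTA-SOX9 and AFOS, came next and is called the mirror set. The remaining 18 ways held 22 to 389 regions each. A further 206 regions had a peak in all 6 DOX lists. Patterns of fewer lists could be larger, with 1041 to 5864 regions for 1 DOX list alone and 3017 for ΔTA-SOX9 and AFOS only.

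**Figure D1:**
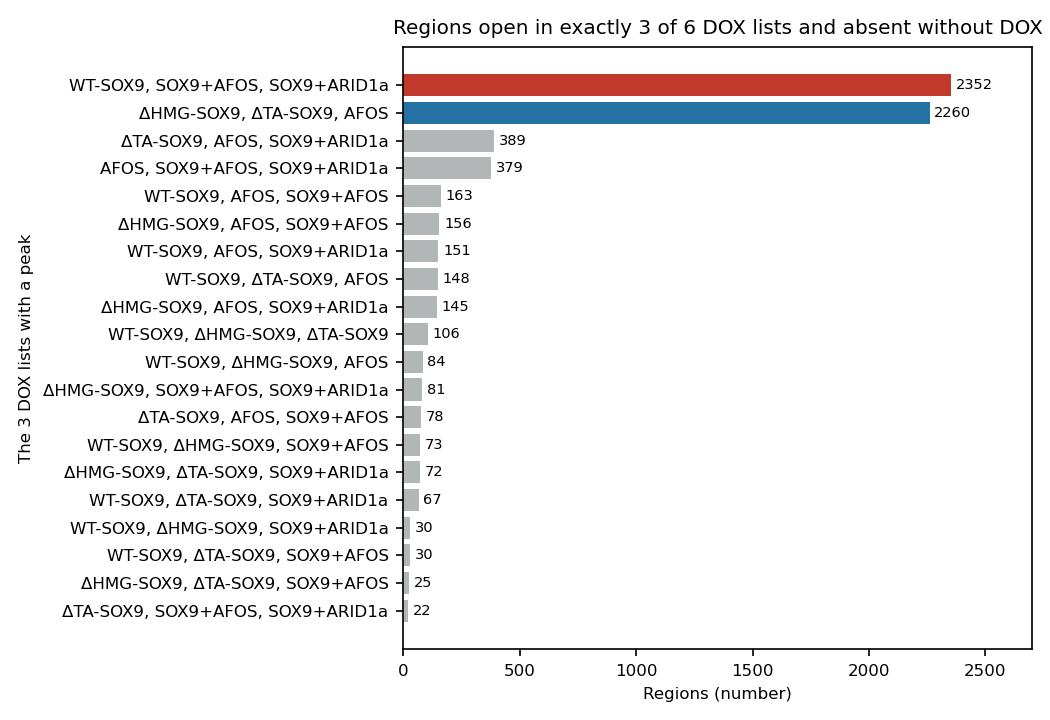
Number of culture regions (x axis) with a peak in exactly 3 of the 6 DOX lists and none without DOX, for each of the 20 sets of 3 lists (y axis). The member set (red, 2352) and the mirror set (blue, 2260) stand apart from the other 18, of which the largest holds 389.

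Members made up 16.8% of the 14021 regions opened in WT-SOX9 (14.4% of all culture regions were opened there), 16.8% of the 13970 opened in SOX9+AFOS (14.4%) and 18.3% of the 12882 opened in SOX9+ARID1a (13.3%). The rule used these contrasts, so the shares describe its reach. Of the 3157 regions with a peak in all 3 SOX9-active arms and none without DOX, 74.5% were members. Near misses, which had exactly 1 barred peak, numbered 891 for noDOX, 276 for AFOS, 53 for ΔHMG-SOX9 and 27 for ΔTA-SOX9. The barred peaks had median scores of 5.35, 4.35, 4.02 and 3.58 in that order against a threshold of 3, and the weakest of the 3 peaks of a member had a median score of 5.44. The members closest to that threshold lay in an intron of Ext1 (chr15:53231017-53231330, WT-SOX9 score 3.003), 41487 bp from the Opa1 start (chr16:29657813-29658410, WT-SOX9 score 3.003) and in an intron of Snx5 (chr2:144259224-144259881, SOX9+AFOS score 3.004). Just outside lay regions in introns of Fryl (chr5:73254790-73255158, noDOX score 3.002), Mgat5 (chr1:127244198-127244900, AFOS score 3.005) and Rab31 (chr17:65701883-65702663, AFOS score 3.009).

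Scores of members in the 3 lists that chose them are given as a description, since the lists differ in length and may differ in peak calling. The authors' peak score, scaled within each list, had a median of 12.3 in WT-SOX9, 9.57 in SOX9+AFOS and 8.27 in SOX9+ARID1a, with highest values of 90.6, 99.0 and 61.7. As a rank among all regions of the same list, the median member stood at the 57.6th percentile in WT-SOX9, the 45.8th in SOX9+AFOS and the 41.5th in SOX9+ARID1a. The best rank of a member was in WT-SOX9 for 52.7% of members, in SOX9+AFOS for 33.2% and in SOX9+ARID1a for 14.1%. The top 10% of the WT-SOX9 list held 142 members (6.04%), that of SOX9+AFOS 70 (2.98%) and that of SOX9+ARID1a 27 (1.15%), against 10% of all regions of a list by construction. Across the 2352 members, which share the union but come from separate libraries, Spearman's rho of the scores was 0.29 for WT-SOX9 with SOX9+AFOS, 0.49 for WT-SOX9 with SOX9+ARID1a and 0.46 for SOX9+AFOS with SOX9+ARID1a. These correlations are descriptive, and list membership truncates the scores at 3. Member regions had a median width of 642.5 bp (206 to 1776), and the 3 peaks shared a stretch in 2343 members, with a median of 383 bp.

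**Figure D2:**
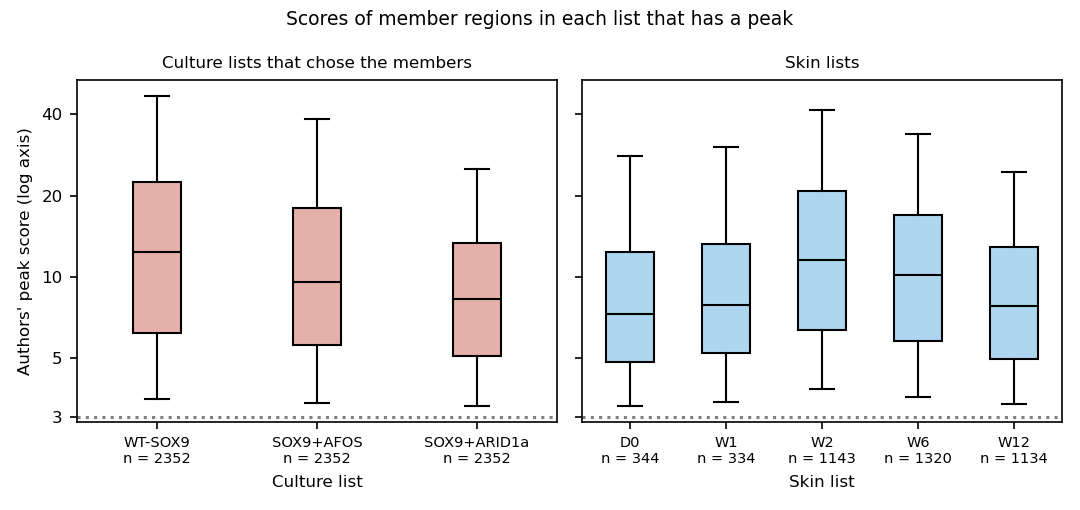
Authors' peak score (log axis) of members in the 3 culture lists that chose them (left) and in the 5 skin lists (right, only members with a peak there, n under each box). Boxes span the quartiles with the median as a line, whiskers reach the 5th and 95th percentiles, and the dotted line is the threshold of 3. The median falls from 12.3 in WT-SOX9 to 8.27 in SOX9+ARID1a, and in skin is 11.5 at W2 against 7.28 at D0.

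The members that ranked high in all 3 arms were found by the lowest of their 3 percentiles. First was an intergenic region whose nearest coding gene, at 40548 bp, was Bmp2k, a protein kinase gene (chr5:96956860-96957421), with scores of 62.8 in WT-SOX9, 70.8 in SOX9+AFOS and 55.7 in SOX9+ARID1a. In skin it had no peak at D0 or W1 and scores of 51.1 at W2, 43.1 at W6 and 27.2 at W12. Second was the Dock2 intron region (chr11:34738764-34739456), with scores of 88.8, 65.5 and 50.7 in culture in the same order. It too had no skin peak at D0 and W1, then scores of 41.8, 46.9 and 29.5. An intron of the noncoding gene Gm12860 (chr4:120616452-120617230) followed with 72.0, 73.1 and 45.7. The region 2322 bp from the Ddx19a start (chr8:110999582-111000662) had 53.1, 56.3 and 44.1, and an intron of Crlf3 (chr11:80061929-80062778) had 61.1, 63.8 and 43.2. All 12 members at the top of this rank had a skin peak at W2, W6 and W12. Among all culture regions 43.8% had a peak at W2, 51.1% at W6, 51.3% at W12 and 39.1% at D0. Of the 12, 10 had none at D0, and the exceptions had weak D0 peaks. These were the intergenic member with Tcf4 as its nearest coding gene (chr18:68976124-68977499), with a D0 score of 3.96 and a W2 score of 96.8, and the Reep3 intron member (chr10:67061170-67062099), with 4.97 at D0, 3.67 at W1 and 69.1 at W2. The rest of the 12 lay in introns of Zfhx3 (chr8:108755310-108756103), 4930402H24Rik (chr2:130818872-130819577) and Gm10556 (chr18:4826497-4827091), at a coding exon of Mtmr12 (chr15:12266211-12267049), and between genes on chromosome 7 with Rgma as the nearest coding gene (chr7:73196721-73197546). The Mtmr12 member had the highest SOX9+AFOS score of all members (99.0) but only 5.42 at W2.

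To ask which factor motifs members hold, consensus letters were sought on both strands in the central 200 bp. SOX matches (ACAATAG or ACAATGG) were present in 474 members, or 20.2% (95% interval 18.6 to 21.8%), against 6.31% of all culture regions. The shorter SOX core (ACAAAG or ACAATG), which overlaps ACAATGG and which TCF factors can also bind, was present in 1396 members, or 59.4% (57.4 to 61.3%), against 28.5% of all culture regions. In the mirror set the shares were 4.16% (3.41 to 5.06%) and 23.4% (21.7 to 25.2%). Members thus held SOX matches about as often as regions with a peak in WT-SOX9 only (19.2%, 18.2 to 20.2%), while the mirror set stood below the background on both measures. Among the sequences of 7 bases, counted with their complements over those present in at least 60 members, the most raised over all culture regions was ATTGTTC (10.7% of members against 3.12%, 3.44 times), followed by ACAATGG (3.33 times), ACAATAG (3.15 times), AACAATG (2.85 times) and CATTGTC (2.83 times). All of these contain ACAAT or its complement ATTGT.

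SOX matches lay around the centre of members. In bins of 50 bp, members held 59.1 and 58.7 SOX matches per 1000 regions in the bins that start 100 and 50 bp before the centre, and 12.8 per 1000 in the bin that starts 400 bp before it. All culture regions held 17.8 in the bin before the centre and 10.7 in the farthest one before it. The mirror set held 10.6 in the bin before its centre, where it held 109.7 AP1 matches. The profile of members was a plateau of about 200 bp rather than a point, and regions are centred on joined peaks and not on a summit.

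**Figure D3:**
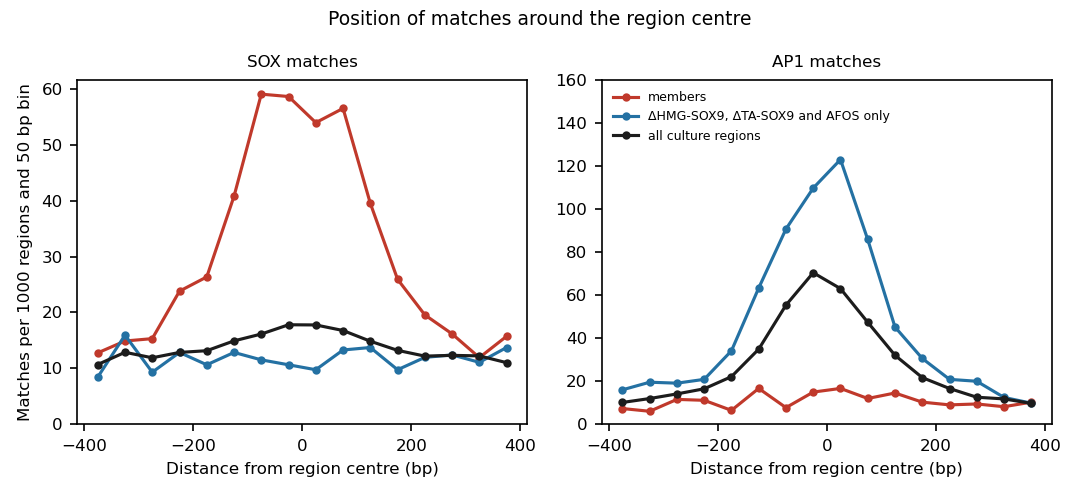
SOX matches (left) and AP1 matches (right) per 1000 regions in bins of 50 bp, by distance from the region centre, for members (red), the mirror set (blue) and all culture regions (black), each panel with its own y axis. Members hold up to 59.1 SOX matches per 1000 near the centre and no more than 16.6 AP1 matches per 1000 in any bin, and the mirror set holds 10.6 SOX and 109.7 AP1 matches per 1000 in the bin before its centre.

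Pairs of SOX cores separated by at most 20 bases were also counted, with the arrangements of interest chosen after the counts were seen. Any such pair was present in 179 members (7.61%) against 1.75% of all culture regions and 15 regions (0.664%) of the mirror set. Cores facing each other with 3 to 5 bases between them, the spacing group seen in the sequences above, were present in 35 members, or 1.49% (1.07 to 2.06%), against 0.225% of all culture regions and 0.312% of regions absent without DOX that were not members. It was present in 1.02% (0.796 to 1.31%) of regions with a peak in WT-SOX9 only and 1.28% (0.849 to 1.94%) of those with a peak in WT-SOX9 and SOX9+ARID1a only, so the intervals of these sets overlap that of members. The mirror set had 0 of 2260 regions with this arrangement, which allows a share of up to 0.133% (3 counts of the total) or, as a Wilson upper bound, 0.170%. Within the facing arrangement the gaps of 3 and 4 bases held 16 and 14 members, and no gap over 5 held more than 5. Tandem cores 1 base apart were present in 20 members (0.850% against 0.112% of all), and cores turned away from each other with 6 to 8 bases between them in 21 (0.893% against 0.0731%). At least 2 SOX cores in any arrangement were present in 19.98% of members (18.4 to 21.6%) and 2.79% of the mirror set (2.18 to 3.55%). The share was 5.80% in all culture regions and 7.96% in regions absent without DOX that were not members. Regions with a peak in WT-SOX9 only held at least 2 cores in 24.2% (23.1 to 25.3%), so more cores did not set members apart from them.

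AP1 matches were scarce in members. The AP1 letters (TGACTCA or TGAGTCA) were present in 112 members, or 4.76% (3.97 to 5.70%), against 21% of all culture regions and 36.3% (34.3 to 38.3%) of the mirror set. TGACTCA was the sequence of 7 bases most lowered in members among those found in at least 10% of regions (0.227 times). The rule required a SOX9+AFOS peak, and sets that differ in which of the 3 lists they required are given as a description. Regions with a peak in WT-SOX9 and SOX9+ARID1a only, which differ from members by the missing SOX9+AFOS peak, held AP1 matches in 19.95% (18.1 to 21.9%) and SOX matches in 21.6% (19.8 to 23.7%). Regions with a peak in WT-SOX9 and SOX9+AFOS only held AP1 matches in 3.23% (2.32 to 4.48%), and those in SOX9+AFOS and SOX9+ARID1a only in 5.12% (4.17 to 6.28%). The SOX share was 13.4% (11.5 to 15.6%) in the WT-SOX9 and SOX9+AFOS set and 7.01% (5.89 to 8.32%) in the SOX9+AFOS and SOX9+ARID1a set. It thus differed with the pair of lists. If the SOX9+AFOS list was not used by the rule, the AP1 share of the resulting 4066 regions was 11.2%.

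The 112 members with an AP1 match had a lower median percentile in SOX9+AFOS, 29.0, than the other 2240 members, 46.6. In WT-SOX9 the medians were 55.9 and 57.7, and in SOX9+ARID1a 41.4 and 41.5. Members with a SOX match stood higher in WT-SOX9, at a median of the 64.0th percentile against the 56.1st for members without one, and their medians in SOX9+AFOS were 43.6 and 46.2. Over whole regions 123 members (5.23%) held both a SOX and an AP1 match, against 5.66% of all culture regions and 7.12% of the mirror set, and the median distances were 173, 144 and 140 bp. In regions with a peak in WT-SOX9 and SOX9+ARID1a only the share was 11.2% and the median distance 87 bp.

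**Figure D4:**
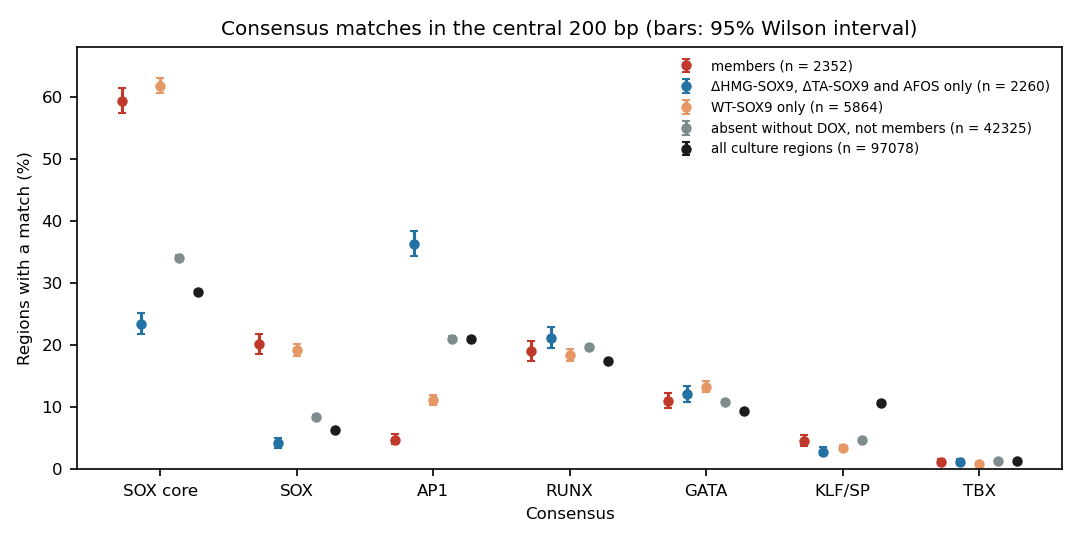
Share of regions with a consensus match in the central 200 bp (y axis, %) for 7 consensuses (x axis) in members, the mirror set, regions with a peak in WT-SOX9 only, regions absent without DOX that are not members, and all culture regions, with 95% Wilson intervals. Members stand at 20.2% for SOX and 4.76% for AP1, and the mirror set at 4.16% and 36.3%. For GATA members stand at 11.0%, regions absent without DOX that are not members at 10.9% and all culture regions at 9.39%.

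GATA letters (AGATAA), the motif of the epidermal regulator GATA3 and its relatives, were present in 258 members, or 11.0% (9.77 to 12.3%). The share was 9.39% in all culture regions, 12.04% (10.8 to 13.4%) in the mirror set and 10.9% in regions absent without DOX that were not members. RUNX letters (TGTGGT) were present in 447 members, or 19.01% (17.5 to 20.6%), and in 17.3% of all culture regions. They were present in 21.2% of the mirror set and 19.6% of regions absent without DOX that were not members. Neither motif thus set members apart from other regions absent without DOX. The CTCF consensus was rarer in members than in all culture regions, with 10 members, or 0.425% (0.231 to 0.781%), against 2.02%, while it was present in 0.442% of the mirror set and 6.27% of regions with a peak in WT-SOX9 and SOX9+AFOS only. KLF and SP letters were present in 4.55% of members (3.78 to 5.47%) against 10.7% of all culture regions, in which promoters are more common, and against 4.70% of regions absent without DOX that were not members. NFI letters were present in 1.36% of members (0.965 to 1.91%), against 0.957% of all culture regions and 0.487% of the mirror set (0.272 to 0.869%). The TBX letters, kept as a control, were present in 1.15% of members and 1.24% of all culture regions. The median GC content of the central 200 bp was 47.0% in members, 47.5% in the mirror set and 48.5% in all culture regions, and repeat-masked bases made up 10.7%, 11.4% and 11.5%.

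The skin lists were not used by the rule and show which members had a peak before and after DOX in the animal. The D0 list had a peak on 344 of the 2352 members (14.6%), the W1 list on 334 (14.2%), the W2 list on 1143 (48.6%), the W6 list on 1320 (56.1%) and the W12 list on 1134 (48.2%). In the mirror set the shares were 10%, 8.32%, 9.82%, 17.0% and 21.5%, and in all culture regions 39.1%, 39.1%, 43.8%, 51.1% and 51.3%. The rise in members lay between the lists labelled W1 and W2. Members absent at D0 and present at W2 numbered 823, or 34.99% (33.1 to 36.9%), against 8.69% of all culture regions. The share was 3.67% (2.97 to 4.53%) in the mirror set, 10.1% (9.40 to 10.9%) in regions with a peak in WT-SOX9 only, 18.8% (17.1 to 20.8%) in those with WT-SOX9 and SOX9+ARID1a only, 20.4% (18.1 to 23.0%) in those with WT-SOX9 and SOX9+AFOS only and 11.1% (9.67 to 12.7%) in those with SOX9+AFOS and SOX9+ARID1a only. Among the 2008 members absent at D0, 41.0% (38.9 to 43.2%) had a peak at W2, against 14.3% of all culture regions absent at D0.

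**Figure D5:**
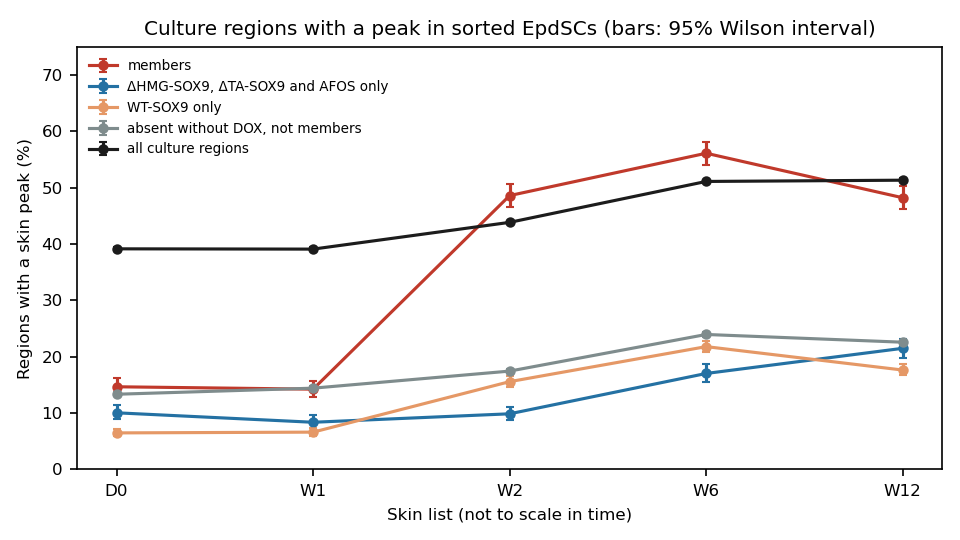
Share of culture regions with a peak in each skin list of sorted EpdSCs (y axis, %; x axis not to scale in time) for members, the mirror set, regions with a peak in WT-SOX9 only, regions absent without DOX that are not members, and all culture regions, with 95% Wilson intervals. Members go from 14.2% at W1 to 48.6% at W2, while the mirror set stays at 9.82% at W2.

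Of the members, 890 (37.8%) had no peak in any skin list, against 67.1% of the regions absent without DOX that were not members. A peak in at least 1 skin list was found for 62.2% of members and 59.7% of all culture regions. A further 621 members (26.4%) had no peak at D0 or W1 but peaks at W2, W6 and W12. This pattern was found in 3.97% of the regions absent without DOX that were not members and in 5.25% of all culture regions. A peak in all 5 skin lists was found for 247 members (10.5%), against 7.16% of those other regions and 31.4% of all culture regions. Peaks in W6 and W12 only were found for 118 members (5.02% against 3.41%), in W6 only for 118 (5.02% against 3.48%), and in W2 and W6 only for 108 (4.59% against 1.32%). At W2 the peaks on members had a median score of 11.5, against 7.28 at D0. The median fold enrichment over local background was nearly the same in both lists, 7.99 at W2 and 7.92 at D0.

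Within members, the skin share moved with peak strength in the culture lists that chose them. The same split was not made for other regions, so whether the trend is particular to members was not tested. Members were split into 3 classes of like size by their weakest-arm percentile. In the highest class (38.3 to 95.3), 49.5% (46.0 to 53.0%) were absent at D0 and present at W2. The middle class had 30.9% (27.8 to 34.2%) and the lowest class 24.6% (21.7 to 27.7%). The median weakest-list percentile was 14.9 in the mirror set against 25.8 in members, and the part of this difference in their skin shares was not tested. SOX matches were present in 21.05%, 20.95% and 18.5% of the 3 classes from highest to lowest, and SOX cores in 65.7%, 57.0% and 55.4%. Members with a SOX match were absent at D0 and present at W2 in 41.6% of cases (37.2 to 46.0%) and those without in 33.3% (31.2 to 35.5%). Peaks at W2 were about as common in both, 50.6% and 48.1%, while peaks at D0 were on 9.92% and 15.8%. For members with an AP1 match the share absent at D0 and present at W2 was 43.75% (34.9 to 53.0%). For those without it was 34.6% (32.6 to 36.5%), with intervals that overlap. The 344 members that already had a D0 peak held fewer SOX cores, 43.3% against 62.1% of the other members.

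The 5 members with the highest W2 score among those with no peak at D0 or W1 and a peak in all later lists included 3 of the top 12 above. The member with Rgma as its nearest coding gene led with 90.9 at W2, 62.3 at W6 and 37.5 at W12. An intron of the noncoding gene Gm10432 (chr12:100281260-100282825), 50866 bp from the start of Ttc7b, had 79.4, 32.4 and 17.1, with culture scores of 38.2 in WT-SOX9, 32.6 in SOX9+AFOS and 28.3 in SOX9+ARID1a. The Gm12860 member had 55.0 at W2 and the Bmp2k member 51.1. A member in an intron of Man2a1, which encodes a Golgi mannosidase (chr17:64644829-64645768), had 51.1 at W2, 42.0 at W6 and 35.7 at W12, and was the only one of the 5 with an AP1 match. Its culture scores were 57.6 in WT-SOX9, 17.4 in SOX9+ARID1a and 4.35 in SOX9+AFOS, the lowest of the 5 in the last arm.

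Members lay mostly away from promoters. The centre was within 1 kb of a transcription start site (TSS) in 183 members, or 7.78% (6.77 to 8.93%), against 19.1% of all culture regions. For the mirror set the share was 7.83% and for other regions absent without DOX 8.85%, so this is shared by regions that opened. Of the rest, 1237 members (52.6%) were intronic, 830 (35.3%) intergenic and 102 (4.34%) exonic. The median distance to a TSS was 10585 bp in members and 7878.5 bp in all culture regions. Members lay a median of 8444.5 bp from the nearest noDOX peak, and 55.4% lay within 10 kb of one, against 45.2% of the mirror set and 36.6% of regions with a peak in WT-SOX9 only. Another member lay within 10 kb of 248 members (10.5%), against 4.65% for regions of the mirror set and 12.8% for regions with a peak in WT-SOX9 only, each among themselves.

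To relate members to genes of the follicle and the epidermis, gene bodies were extended by 50 kb. On a list of 35 hair follicle genes, 14 had at least 1 member in reach and 12 had a region of the mirror set, and 29 of the 632 culture regions there were members (4.59%, 3.21 to 6.51%), against 2.42% of all culture regions. The mirror set had 15 of these regions (2.37%). Of 18 epidermal genes 5 had a member in reach (8 of 270 regions, 2.96%, 1.51 to 5.74%) and 3 a mirror region, of 11 chondrocyte genes that SOX9 is known to act on 6 had a member (9 of 124 regions, 7.26%, 3.87 to 13.2%) and 0 a mirror region, and of 18 hedgehog and WNT pathway genes 1 had a member (1 of 214 regions, 0.467%, 0.0825 to 2.60%) and 5 a mirror region. Tcf7l2 and Sfrp1, which also belong to the WNT pathway, were counted in the hair follicle list only, while Gli1, Gli2 and Ptch1 stood on both lists. Windows of neighbouring genes such as Krt17 and Krt14 also overlap, so the lists are not independent of each other. In the chondrocyte list these were Sox5, with 3 members, Comp with 2, and Sox6, Col11a2, Col11a1 and Col9a1 with 1 each, of which Sox5 and Sox6 encode SOXD partners of SOX9 and the collagen genes and Comp encode cartilage matrix. Regions and genes on these lists were few, and the intervals are wide.

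Tcf7l2, which encodes a WNT effector of hair follicle stem cells, had the most members of the hair follicle list, 6 of 22 regions, and 4 of the 6 were absent at D0 and present at W2. The mirror set had 0 there. The Tcf7l2 intron member shown above (chr19:55788307-55788720) had scores of 31.8 in WT-SOX9, 27.4 in SOX9+AFOS and 19.9 in SOX9+ARID1a, no skin peak at D0 and W1, and 30.7 at W2, 22.3 at W6 and 11.2 at W12. At Nfib, which encodes a nuclear factor I protein of hair follicle stem cells, the highest ranked of 3 members (chr4:82755443-82756526, 50235 bp from the TSS) had 61.9, 27.9 and 21.4 in culture and 5.85, 18.6 and 9.96 at W2, W6 and W12. An intron of its relative Nfix (chr8:84728459-84729003) had 13.6, 23.7 and 16.5 in culture and 5.44 at W2. These 3 regions had no skin peak before W2.

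Skin records at other follicle genes varied. The member 23512 bp from the start of Lhx2 (chr2:38376997-38377631), a hair follicle stem cell factor, was already open at D0 (7.81) and had later scores of 7.85 to 16.7. The Vdr intron member (chr15:97897210-97897972), near the start of the vitamin D receptor gene, had 12.1 in WT-SOX9, 12.5 in SOX9+AFOS and 8.55 in SOX9+ARID1a and a skin peak at W6 only (4.86). The Foxp1 intron member (chr6:99136023-99136740) had 50.6 in WT-SOX9 but 6.81 in SOX9+AFOS and 10.1 in SOX9+ARID1a, and the Bmp2 member (chr2:133546970-133547644, 4852 bp from the TSS) had 49.1, 3.92 and 7.81. Neither had a peak in any skin list, nor had the Id2 member (chr12:25100750-25101328). The Sfrp1 intron member (chr8:23442969-23443662), in a gene for a secreted WNT antagonist, had its lowest culture score in WT-SOX9 (6.25, against 18.002 in SOX9+AFOS), no skin peak at D0 and W1, and 13.2, 14.2 and 11.1 at W2, W6 and W12. The Lgr6 intron member (chr1:135057873-135058505) had the same record, with 14.2, 21.9 and 8.62. Within reach of Krt17 the leading member lay 2372 bp from the start of Krt14, the basal keratin gene (chr11:100209659-100210180), with 47.1 in SOX9+AFOS, 6.76 in WT-SOX9, a weak D0 peak (3.46), none at W1, and 20.1, 13.7 and 12.6 at W2, W6 and W12. Within reach of Tbx1 the leading member lay nearer to Gp1bb (chr16:18614931-18615392) and had a skin peak at W12 only (3.502).

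Most genes that were nearest to a member were so for just 1 (1768 genes), 221 had 2, and the most for any gene was 5, for Sipa1l1, Sbspon and the noncoding gene 4732490B19Rik. At Sbspon, which encodes a secreted somatomedin B and thrombospondin domain protein, the 5 members, beside only 4 other culture regions nearest to this gene, were strung from chr1:15894107-15894887 to chr1:15936048-15937432. All 5 lacked a skin peak at D0 and W1 and had one at W2, with W2 scores of 4.42 to 21.5. Their WT-SOX9 scores ran from 12.1 to 36.9 and their SOX9+AFOS scores from 9.36 to 12.9. Of the 5 members nearest to Sipa1l1, which encodes a signalling and scaffold protein, 4 lay in its introns and 1 between genes, from chr12:82197330-82198102 to chr12:82454298-82454849 beside 33 other regions nearest to this gene, and 3 of the 5 were absent at D0 and present at W2. The 4732490B19Rik members began 438 kb beyond the end of Sox9 on chromosome 11 (chr11:113225822-113226449), 4 of them lay in introns of Slc39a11, and 15 other culture regions were nearest to 4732490B19Rik. Of these 5, the first (WT-SOX9 score 19.1, W2 score 31.0) was absent at D0, the second had a weak peak at W6 only (3.25), and 3 already had peaks at D0 (3.20, 10.2 and 9.81).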

How the data were processed

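ATAC-seq reads of cultured and sorted mouse EpdSCs were aligned to GRCm38 by the authors (PEPATAC, with Bowtie2 2.2.9, SAMtools 1.9, Picard 2.3.0 and MACS2 2.1.1 named in the submitters' processing notes). The authors merged both replicates of a group, called peaks with duplicates kept, and removed peaks under a normalized score of 3. The deposited peak score ranked peaks within a list, and its scaling to a common total was inferred from the list totals. The skin files also held the deposited fold ratio over local background and −log10 q-values, of which the latter were only read to check the files. Names of peaks in the SOX9+ARID1a, SOX9+AFOS and AFOS lists mention fragments and those of the others do not, so peak calling may have differed.

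Peaks were joined at 1 bp overlap (Python 3.11.15, pandas 2.3.3, numpy 2.4.6, pysam 0.24.0). Matches were sought in the central 200 bp, and TSSs and genes were taken from GENCODE M21. Shares carry 95% Wilson intervals (scipy 1.17.1). With 1 list per group no statistical test was made. The scripts were tested on simulated peaks. The members and the gene and motif lists were chosen with earlier results of these data known. Named regions were the 12 members with the highest weakest-arm percentile, the 5 with the highest W2 score among those gained by W2 and kept, the leading member of up to 12 hair follicle genes, members of the 3 genes with the most members, and regions next to the threshold. Comparisons with regions of a pair of SOX9-active lists, pair arrangements and splits of members were chosen after the data were seen.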

Additional observations from a re-analysis of the deposited data

How the results depend on the processing

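No paired analysis was possible because each group was deposited as 1 pooled peak list. The count of 2352 members was 1739 with culture lists at a score of at least 5, 2191 with lists cut to the length of the shortest, 2351 with peaks joined at 100 bp and 2383 with peaks that cover 25% of a region. It was 1310 when the 3 peaks of a member had to reach a score of 5, 4050 without the WT-SOX9 list and 4066 without the SOX9+AFOS list. Alternatives that leave a list out of the rule were added for the shares after the data were seen.

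The SOX share (20.2%) was 17.5% without noDOX, 14.6% without WT-SOX9, 18.1% without SOX9+ARID1a, 30.2% in the central 400 bp, 37.1% in the full region (15.5% of all culture regions) and 21.9% centred on the stretch shared by the 3 peaks. The AP1 share (4.76%) was 3.59% with 3 peaks at a score of 5, 6.63% without noDOX, 11.2% without SOX9+AFOS, 8.97% in 400 bp, 14.8% in the full region (36.3% of all culture regions) and 5.87% centred on the shared stretch. The GATA share (11.0%) was 9.51% without WT-SOX9, 20.6% in 400 bp and 32.7% in the full region. Longer windows hold more letters.

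The share absent at D0 and present at W2 (34.99%) was 39.5% with culture lists at a score of 5, 42.7% with 3 peaks at 5, 31.6% without noDOX, 24.96% without WT-SOX9, 33.0% without AFOS, 28.2% without SOX9+AFOS, 30.5% without SOX9+ARID1a, 30.8% with skin lists at 5 (8.05% of all culture regions) and 32.0% with skin lists cut to the length of the shortest. The share within 1 kb of a TSS (7.78%) was 30.1% within 5 kb and 5.40% for protein-coding genes only. The other 57 of 86 alternative values lay within the interval, or for the count within 1.5 times the main value. Depth and replicate spread are unknown, absence of a peak means a score under 3, and leaving out a list also changes which regions are counted.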
